A study of Ambystoma mexicanum with 44 samples.

Results

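The comparison set the amputated and denervated forelimb of the axolotl (Ambystoma mexicanum) against a punch wound through the full thickness of the flank skin, both at day 7 after injury. It asks what amputation without a nerve supply adds to plain skin healing. The arrays were taken by their labels: 4 arrays of denervated limb and 4 of flank wound at day 7, which are 8 of the 44 arrays of the series. All 20035 probe sets other than the array's control probe sets were compared. In the denervated animals the forelimb was cut just above the elbow, the humerus was trimmed back, and the brachial nerves were transected. The flank animals received a round punch wound and no nerve cut. Values of other groups are set beside these: the innervated forelimb, amputated in the same way with its nerves intact, at days 0 and 7, the denervated limb at days 1 and 3, and the flank at days 0, 1 and 3. Day 0 tissue was uninjured. Each group has 4 biological replicates, and each replicate pooled harvests of 1 aquatic axolotl. Epidermis was harvested together with cells adhering to it, so dermal, muscle and blood cells can be included. No denervated limb array of day 0 is among the labels, and the uninjured innervated limb stands in as the limb's starting point. Body site, kind of injury and nerve supply all differ between the denervated limb and the flank wound, and within this single contrast their parts cannot be told apart.

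An amputated axolotl limb is first covered by a wound epidermis. With nerves present this epidermis thickens and a blastema of dividing cells builds up below it, and without nerves the stump closes but no new limb forms. A flank wound closes through the same early steps and is repaired as skin. Retinoic acid, fibroblast growth factors (FGF), bone morphogenetic proteins (BMP) and Wnt ligands are signals of limb outgrowth in vertebrates, and the cut bone is resorbed by osteoclasts and other phagocytes before regrowth.

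Values are log2 expression values as deposited, so a difference of 1 is a 2-fold difference. Differences are given as denervated limb minus flank wound with their standard error (SE), and adjusted p-values are from limma over all 20035 probe sets. An adjusted p under 0.05 was called, and "rose" and "fell" refer to called differences of the denervated limb relative to the flank wound. Of several probe sets of a gene, the one with the highest mean level over 44 arrays stands for it. In RNA from bulk tissue, fewer cells of a type and less RNA per cell cannot be told apart.

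At day 7 the denervated limb and the flank wound differed in 1442 of 20035 probe sets (7.2%), of which 684 were higher in the denervated limb (3.41%) and 758 lower (3.78%). The median difference over all probe sets was 0.0125. A difference of at least 2-fold was found for 153 of the higher (0.764%) and 160 of the lower probe sets (0.799%). In 589 of the higher (2.94%) and 663 of the lower probe sets (3.31%), the 4 values of one group did not overlap the 4 of the other. The genes with the largest day 7 differences each way were named only among such probe sets. Their lack of overlap was thus a condition of naming and not a result. Without denervated limb replicate 1 at day 7 the called probe sets were 429 higher and 503 lower, the lowest of any array left out. Counted as 1 probe set per named gene, 658 of 8639 genes were called (7.62%), with 305 higher (3.53%) and 353 lower (4.09%). Counts within gene lists are read against these last shares. The lists were chosen with earlier results of these data known, so this comparison is a description and not a test. Arrays of the same group had correlations of 0.9895 to 0.9927 among the denervated limbs and 0.9882 to 0.9934 among the flank wounds, against 0.9785 to 0.9883 between the groups.

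**Figure D1:**
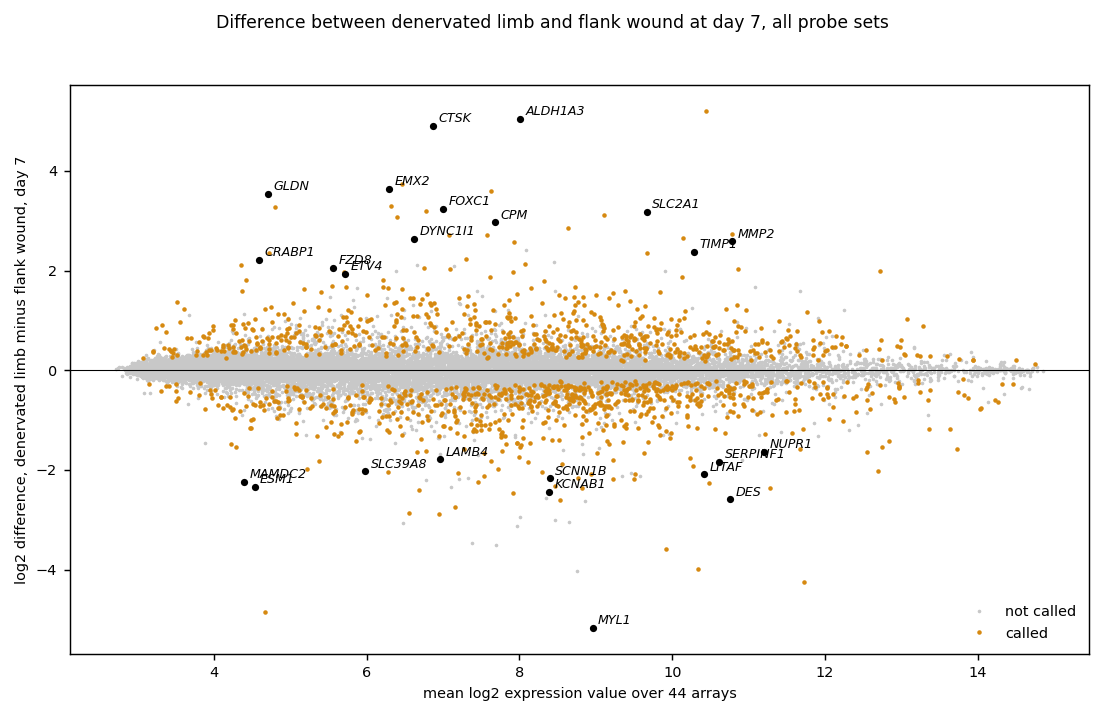
Each point is 1 of 20035 probe sets; the x axis is the mean log2 expression value over 44 arrays and the y axis the log2 difference, denervated limb minus flank wound, at day 7. Orange points are the 1442 called probe sets, and named black points are called genes with some of the largest differences, from ALDH1A3 at 5.04 to MYL1 at -5.17.

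Marker genes were examined for the cell types that such a sample could hold. They do not check the labels of body site, nerve state or day. Keratinocyte markers, 10 of 12 measured, had a mean level of 10.97 to 11.17 in the denervated limbs and 10.92 to 11.08 in the flank wounds, so epidermal markers were high in all 8 arrays. Phagocyte markers, 6 of 10 measured, averaged 7.62 to 7.78 in the denervated limbs, against 7.03 to 7.16 in the flank wounds and 6.79 to 7.24 in innervated limbs. The muscle markers, 6 of 8 measured, averaged 4.00 to 4.35 in the denervated limbs and 5.85 to 7.23 in the flank wounds. The groups did not overlap for phagocyte or muscle markers, nor for the Schwann cell and axon markers given with the nerve genes. Dermal fibroblast markers, 7 of 8 measured, overlapped, at 9.15 to 9.78 in the denervated limbs and 9.58 to 9.94 in the flank wounds, and none was called (3 at an unadjusted p under 0.05). For chondrocytes (5 of 5), pigment cells (3 of 5), erythrocytes (3 of 6), endothelium (5 of 5) and ionocytes (1 of 4) limma called no marker, and at an unadjusted p under 0.05 it was 1 pigment marker and 0 of the others.

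**Figure D2:**
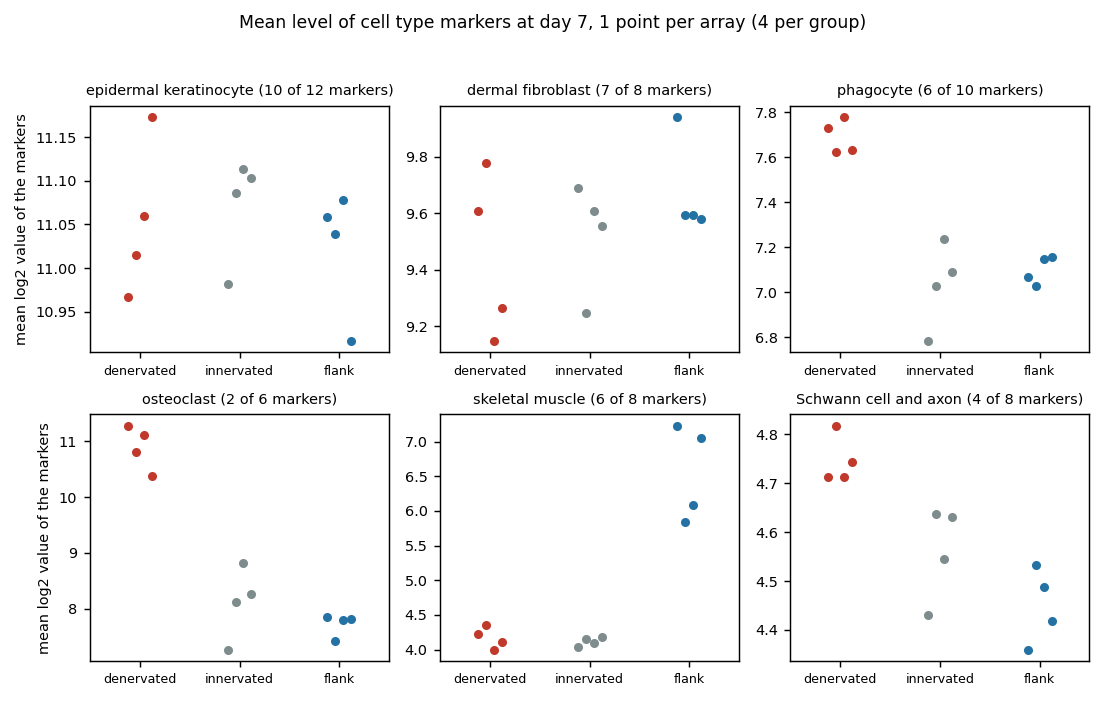
Each point is 1 array at day 7 and gives the mean log2 expression value of the measured markers of a cell type, in denervated limb, innervated limb and flank wound (4 arrays each). The osteoclast markers (CTSK and ACP5 alone) and the phagocyte markers are highest in the denervated limb, the muscle markers are highest in the flank wound, and the keratinocyte markers overlap.

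The largest rise of a named gene was in retinoic acid synthesis. ALDH1A3, an enzyme that makes retinoic acid from retinal, had 10.98, 9.09, 10.38 and 10.56 in the denervated limbs, against 6.25, 6.53, 4.05 and 4.02 in the flank wounds. The groups were far apart, although the flank arrays themselves fell into a higher and a lower pair. The difference was 5.04 ± 0.59 (SE, adjusted p = 2.11e-07). RDH10, which makes the retinal that ALDH1A3 uses, had 9.50, 8.93, 9.21 and 9.10 in the denervated limbs and 7.94, 8.06, 8.12 and 8.22 in the flank wounds. It was higher in every denervated array than in any flank array, by 1.10 (adjusted p = 2.42e-05). CRABP1, a carrier that binds retinoic acid inside the cell, had 6.49, 5.67, 5.60 and 5.46 in the denervated limbs, against 3.51, 3.47, 3.69 and 3.71 in the flank wounds, a difference of 2.21 (adjusted p = 0.00274). These 3 were the called members of the retinoid list, 3 of 17 measured, and the median over the list was 0.04. Before injury 2 members of the list were called higher in limb than in flank and 0 lower (1.9% and 2.46% of all probe sets). Of the 3 genes, the change from day 0 to day 7 was called as different between limb and flank for ALDH1A3, and not for RDH10 or CRABP1. Over the list, this difference of changes (limb minus flank) was called positive for 1 member and negative for 2. Of all probe sets, 1.9% were called positive and 1.91% negative. ALDH1A1, another retinal dehydrogenase, differed by -0.67 (95% interval -1.12 to -0.219, adjusted p = 0.0605). It was called lower with limma on the 8 arrays alone (adjusted p = 0.0309), without dim probe sets (0.0493), with array weights (0.0245) and without denervated replicate 4 (0.0408), and in the first 3 of these settings 2 retinoid members were called lower. The difference of changes of ALDH1A1 was called at -1.065, and that of its other probe set was -1.0075 (adjusted p = 0.079). CRABP2, a second retinoic acid carrier, differed by 0.23 (-0.192 to 0.652).

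ALDH1A3 was already higher in the denervated limb on day 1, by 3.22 (adjusted p = 0.00143), and on day 3, by 4.01 (adjusted p = 1.66e-05). Before injury, limb and flank differed by 0.83 (adjusted p = 0.515). At day 7 the denervated limb differed from the innervated limb in ALDH1A3 by 0.35 (adjusted p = 0.923), a contrast that shares the denervated arrays. For CRABP1 the denervated limb differed by -2.39 (adjusted p = 0.0072) from the innervated limb, whose 4 values lay between 6.26 and 9.92. That nerve difference was -1.81 with an adjusted p of 0.0872 without innervated limb replicate 1, and limma on those 8 arrays alone gave an adjusted p of 0.166.

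Of the limb transcription factor list, 3 of 26 measured members rose (DLX6, SALL4 and TBX5), with a median of 0.12, and so did EMX2 and FOXC1, which are not on it. EMX2, a homeobox transcription factor of the limb girdle and proximal limb, had 7.86, 7.97, 7.63 and 8.04 in the denervated limbs and 4.16, 4.48, 4.17 and 4.12 in the flank wounds. The 2 sets of values were tight and well apart, with a difference of 3.64 ± 0.188 (SE, adjusted p = 2.46e-16). The same gap was there before injury: uninjured limb lay at 7.32 to 7.70 and uninjured flank at 4.13 to 4.20, a difference of 3.37 (adjusted p = 1.64e-15). DLX6, a homeobox factor of limb and skin appendages, had 7.25, 7.03, 7.17 and 7.72 in the denervated limbs, against 4.74, 5.90, 5.15 and 5.19 in the flank wounds. It was 2.05 higher at day 7 (adjusted p = 5.45e-07) and 1.72 higher before injury (adjusted p = 2.44e-05). For EMX2 and DLX6 the change from day 0 to day 7 did not pass as different between limb and flank, with differences of changes of 0.28 (adjusted p = 0.707) and 0.33 (adjusted p = 0.746).

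SALL4, a zinc finger factor of limb buds and stem cells, was low at both sites before injury. It lay at 3.79 to 3.95 in uninjured limb and at 3.88 to 4.29 in uninjured flank. At day 7 it had 10.92, 10.56, 10.51 and 10.54 in the denervated limbs, against 9.64, 9.41, 9.16 and 9.74 in the flank wounds. All 8 injured values lay far above the uninjured ones, and the denervated limb was 1.15 ± 0.17 above the flank wound (SE, adjusted p = 1.5e-05). On day 3 the gap was 1.68 (adjusted p = 1.87e-08). FOXC1, a forkhead factor of mesenchyme and skin glands, had 8.06, 7.58, 8.24 and 7.28 in the denervated limbs and 4.79, 4.67, 4.17 and 4.58 in the flank wounds. It was 3.24 ± 0.416 higher (SE, adjusted p = 1.15e-06), with no overlap. Its difference of changes from day 0 was smaller, at 2.045, because its mean in uninjured limb lay above that in uninjured flank. TBX5, the T-box factor that starts the forelimb bud, had 6.02, 5.74, 4.30 and 4.19 in the denervated limbs and 4.28, 4.16, 4.30 and 4.12 in the flank wounds. Only 2 denervated arrays stood above the flank range, and its difference of 0.85 (adjusted p = 0.0214) had an adjusted p of 0.195 without denervated replicate 1, 0.134 without denervated replicate 2, 0.0523 without flank replicate 2 and 0.0535 without flank replicate 4. It was 0.283 when limma was fitted to these 8 arrays alone. MEIS1, a factor of the proximal limb, differed by -0.17 (95% interval -0.461 to 0.121).

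**Figure D3:**
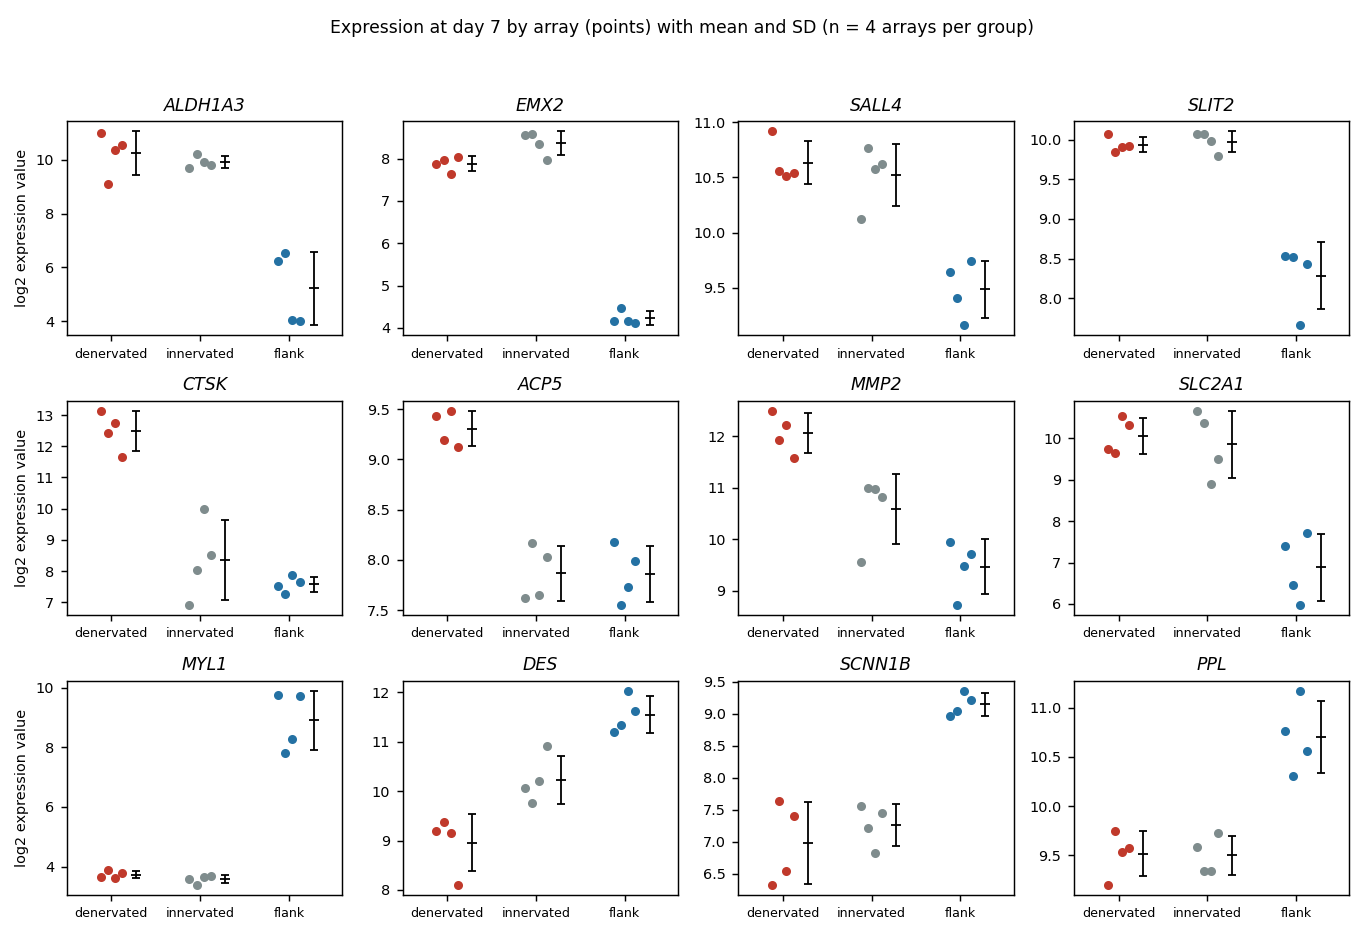
Log2 expression values at day 7 of 12 genes, 1 point per array, in denervated limb, innervated limb and flank wound, with the mean and SD of 4 arrays beside each group. The denervated limb stands apart from the flank wound in every panel, and for CTSK, ACP5 and MMP2 it also stands above the innervated limb. For genes named by their largest differences, separation from the flank wound was a condition of being named.

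Of FGF and Wnt signalling, the genes ETV4, SPRY1 and FZD8 were higher in the denervated limb. ETV4, an ETS factor switched on by FGF signalling, had 7.54, 7.17, 7.27 and 7.05 in the denervated limbs and 5.87, 5.49, 4.81 and 5.11 in the flank wounds. All denervated values were higher, by 1.94 ± 0.183 (SE, adjusted p = 3.14e-09). On day 3 the difference was 2.44, and before injury limb exceeded flank by 0.76 (adjusted p = 0.00948). SPRY1, a feedback inhibitor of FGF signalling, had 5.96, 6.16, 5.77 and 6.03 in the denervated limbs and 5.16, 5.23, 5.14 and 5.11 in the flank wounds (difference 0.82, adjusted p = 0.00291). ETV4 and SPRY1 were the 2 called members of the list of ridge and blastema signals, 2 of 22 measured, with a median of 0.14. FZD8, a Wnt receptor, had 6.58, 7.25, 7.27 and 6.14 in the denervated limbs, against 4.81, 4.75, 4.49 and 4.95 in the flank wounds. It rose by 2.06 at day 7 (adjusted p = 4.79e-08), and its difference on day 3 was 2.12.

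In the TGF-beta and BMP list, 6 of 32 measured members rose and 1 fell, and the median was 0.30. BMP2, a ligand, had 6.99, 6.99, 6.70 and 6.83 in the denervated limbs and 6.06, 5.97, 5.66 and 5.99 in the flank wounds, a difference of 0.96 (adjusted p = 3.46e-05). ID3, a target that blocks differentiation factors, had 6.67, 6.42, 6.36 and 6.35 in the denervated limbs, against 5.38, 5.37, 5.04 and 5.32 in the flank wounds, a difference of 1.17 (adjusted p = 4.72e-06). Neither gene had overlapping values. BMPR2, the type II BMP receptor, rose by 0.68 (adjusted p = 0.000278), although its 3 other probe sets differed by -0.31 to 0.34 and were not called. TGFB2, a ligand, was 0.77 higher (adjusted p = 0.00283) at levels near the bottom of the scale, 4.79, 3.78, 3.31 and 3.40 in the denervated limbs, against 3.09, 2.96, 3.09 and 3.07 in the flank wounds. With limma on the 8 arrays alone its adjusted p was 0.171. SMAD1, which carries the BMP signal to the nucleus, fell by 0.59 (adjusted p = 0.000271), whereas on day 3 it was 0.56 higher in the denervated limb (adjusted p = 0.000641).

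The ligands AREG and SLIT2, outside these pathways, also rose. AREG, an epidermal growth factor receptor ligand, had 9.03, 8.22, 9.73 and 9.13 in the denervated limbs, against 6.97, 7.27, 7.31 and 7.91 in the flank wounds, a difference of 1.66 (adjusted p = 0.00758). It was the 1 called member of 12 measured in the EGF family list, whose median was 0.07. SLIT2, a secreted guidance cue for axons and migrating cells, had 10.07, 9.85, 9.91 and 9.92 in the denervated limbs and 8.53, 8.52, 7.66 and 8.43 in the flank wounds. The denervated values were nearly identical and all higher, by 1.65 ± 0.301 (SE, adjusted p = 0.000278). The guidance and trophic list had 3 of 32 measured members higher, with a median of 0.10, and 1 called without denervated replicate 1.

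KAZALD1, a secreted protein of the axolotl blastema, was a case of timing. On day 3 its level was 11.77 to 12.42 in the denervated limbs and 7.94 to 9.15 in the flank wounds, a difference of 3.77 (adjusted p = 9.09e-09). At day 7 it had 12.93, 12.63, 12.46 and 12.21 in the denervated limbs, against 13.05, 12.14, 12.20 and 12.18 in the flank wounds. By then the groups overlapped, with a difference of 0.17 (95% interval -0.58 to 0.91, adjusted p = 0.89).

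**Figure D4:**
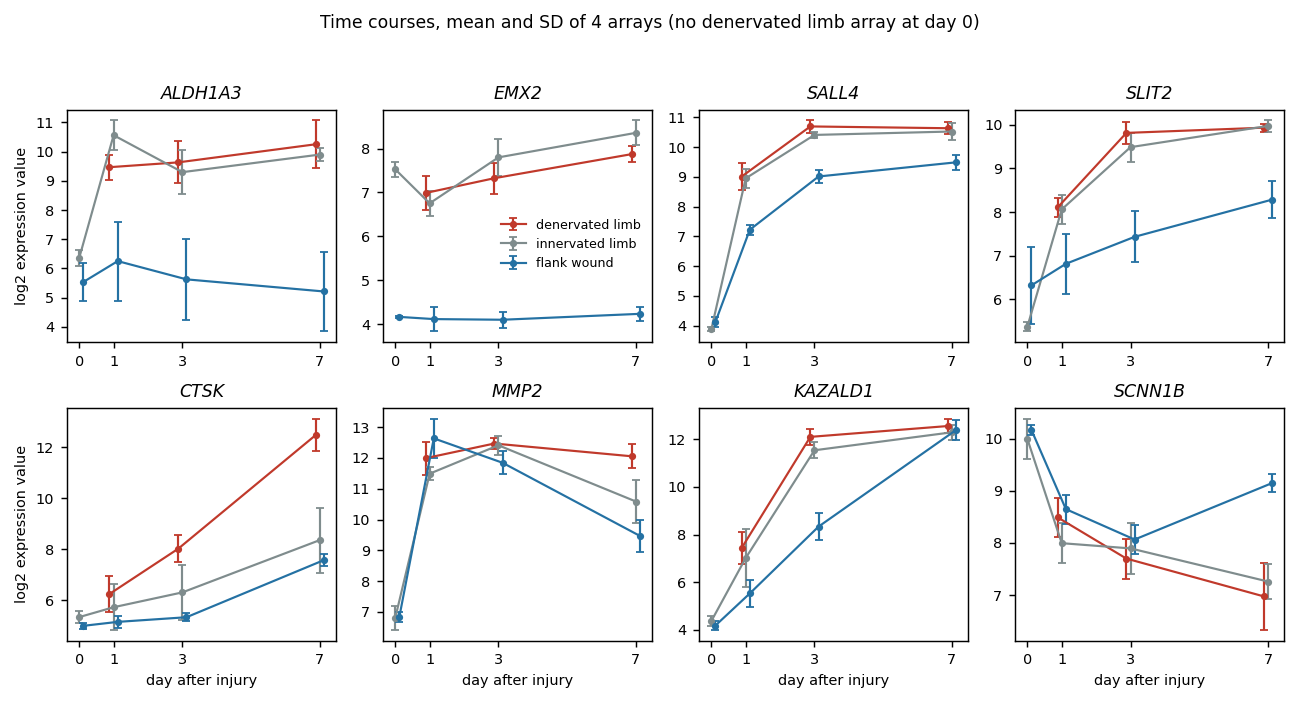
Mean and SD of 4 arrays of log2 expression values of 8 genes at days 0, 1, 3 and 7 in denervated limb (no day 0 arrays), innervated limb and flank wound. EMX2 is separate before injury, SALL4 and SLIT2 climb in every setting but less in the flank wound, KAZALD1 meets at day 7, and CTSK climbs most in the denervated limb.

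CTSK, ACP5 and TCIRG1, which osteoclasts use to resorb bone, rose. CTSK, the collagen-degrading cathepsin of osteoclasts, had 13.13, 12.42, 12.76 and 11.64 in the denervated limbs, against 7.52, 7.28, 7.86 and 7.65 in the flank wounds. The difference was 4.91 ± 0.458 (SE, adjusted p = 2.72e-09), a 30.1-fold difference, and a second CTSK probe set rose by 0.91 (adjusted p = 3.03e-05). ACP5, the acid phosphatase that marks osteoclasts, had 9.43, 9.19, 9.48 and 9.12 in the denervated limbs and 8.18, 7.55, 7.73 and 7.99 in the flank wounds, a difference of 1.44 (adjusted p = 5.16e-05). TCIRG1, a proton pump subunit by which osteoclasts acidify the bone surface, had 10.60, 10.59, 10.65 and 10.45 in the denervated limbs, against 9.47, 9.65, 9.63 and 9.73 in the flank wounds (difference 0.95, adjusted p = 8.63e-06). Every denervated value of these 3 genes was above every flank value. In the osteoclast list 6 of 18 measured members rose and none fell (8 and 0 at an unadjusted p under 0.05), with a median of 0.24, and 2 fell where the mean of all probe sets stood for each gene. ATP6V1A, another proton pump subunit, rose by 0.81 (adjusted p = 0.0023) but a second probe set of it fell by 2.37 (adjusted p = 7.8e-07), so its direction depends on the probe set.

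For these genes the innervated limb was set beside both groups. The innervated limb at day 7 had CTSK values from 6.91 to 9.99, which were 0.79 above the flank wound (adjusted p = 0.361), and the denervated limb exceeded the innervated limb by 4.13 (adjusted p = 9.55e-07). ACP5 in the denervated limb was 1.44 above the innervated limb (adjusted p = 0.000586), while the innervated limb and the flank wound differed by 0.005. TCIRG1 was 0.76 above the innervated limb (adjusted p = 0.00215). These contrasts share day 7 arrays and are not independent of each other. Between denervated and innervated limb at day 7, 340 of 20035 probe sets were called (1.7%), and between innervated limb and flank wound 1868 (9.32%). The 340 were 179 higher (0.893%) and 161 lower (0.804%), and 44 and 28 without innervated replicate 1. Of the 6 osteoclast markers chosen for the cell type check, CTSK and ACP5 were measured, and the log2 of their summed linear level was 11.87 to 13.24 in the denervated limbs, against 8.42 to 8.89 in the flank wounds. Both genes are given above as rises, and CTSK had the higher values in the denervated limbs. The sum therefore largely repeats CTSK and is no separate check. How many osteoclasts the samples held was not tested.

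In the phagocyte list 7 of 27 measured members rose and none fell (10 and 0 at an unadjusted p under 0.05), with a median of 0.33, and 4 rose without denervated replicate 3 or without flank replicate 2. On day 3, 1 member was called higher and 3 lower (3.59% and 2.74% of all probe sets), with a median of -0.12. For the difference of changes 0 were called, with a median of 0.215. Between denervated and innervated limb at day 7, 4 were called higher and 0 lower (0.893% and 0.804% of all probe sets). Between innervated limb and flank wound 0 were called higher and 3 lower, and 9.32% of all probe sets were called. CSF1R, the receptor for the macrophage growth factor, had 6.80, 6.70, 6.99 and 6.68 in the denervated limbs and 5.91, 6.32, 6.07 and 5.92 in the flank wounds, a difference of 0.74 (adjusted p = 0.00338). NCF1, a subunit of the oxidase with which phagocytes kill microbes, had 7.01, 7.30, 7.38 and 7.24 in the denervated limbs, against 6.12, 6.13, 5.90 and 6.43 in the flank wounds, a difference of 1.09 (adjusted p = 0.00614). On day 3 NCF1 ran the other way, at 5.74 to 7.14 in the denervated limbs and 7.13 to 8.04 in the flank wounds, with a difference of -1.03 (adjusted p = 0.0115). That day 3 call was lost without denervated replicate 4 (adjusted p = 0.0663), without flank replicate 3 (0.0744), and with limma on the 8 day 3 arrays alone (0.1). GRN, a lysosomal protein of macrophages, rose by 0.69 (adjusted p = 0.000477), the lysosomal protease LGMN by 0.60 (adjusted p = 0.000294) and the lysosomal protease CTSB by 0.48 (adjusted p = 0.00043). The log2 summed level of the 6 measured phagocyte markers was 11.57 to 11.78 in the denervated limbs and 11.01 to 11.35 in the flank wounds, and its part in these rises was not tested. CD247, a signalling chain of the T cell receptor, rose by 1.12 (adjusted p = 2.11e-07), with 8.11, 8.51, 7.95 and 7.98 in the denervated limbs, against 7.02, 6.82, 7.16 and 7.07 in the flank wounds. It was the 1 called member of 7 measured in the lymphoid list.

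Secreted proteases and their inhibitors moved in both directions. MMP2, a gelatinase that cuts basement membrane collagen, had 12.49, 11.93, 12.22 and 11.58 in the denervated limbs and 9.95, 8.72, 9.48 and 9.71 in the flank wounds, a difference of 2.59 ± 0.297 (SE, adjusted p = 1.43e-07). Its second probe set differed by 0.95 (adjusted p = 0.224). MMP2 in the denervated limb was also 1.47 above the innervated limb (adjusted p = 0.00628), with an adjusted p of 0.0763 without innervated replicate 1 and 0.0735 with limma on those 8 arrays alone. TIMP1, an inhibitor of matrix metalloproteinases, had 11.56, 10, 11.18 and 10.77 in the denervated limbs, against 9.10, 7.83, 7.90 and 9.19 in the flank wounds (difference 2.37, adjusted p = 0.000196). CPM, a membrane carboxypeptidase, had 8.98, 8.06, 8.63 and 8.98 in the denervated limbs, against 4.96, 6.31, 5.57 and 5.94 in the flank wounds (difference 2.97, adjusted p = 3.19e-08). SERPINF1, a secreted inhibitor of blood vessel growth, ran the opposite way with 9.12, 9.01, 8.71 and 8.63 in the denervated limbs and 10.50, 10.93, 10.75 and 10.64 in the flank wounds, a difference of -1.84 (adjusted p = 1.33e-08). The protease list had 5 of 25 measured members higher and 1 lower, with a median of 0.20, and 3 higher without flank replicate 4. MMP9, another gelatinase, differed by -0.10 (95% interval -0.378 to 0.173), and MMP14, a membrane-bound collagenase, by 0.57 (adjusted p = 0.0519). With limma MMP14 was called higher after quantile normalization (adjusted p = 0.0344), after median centring (0.039) and without dim probe sets (0.0421). It was also called without denervated replicate 3 (0.0274) and without flank replicate 1 (0.0162). In the other settings it was not called, and without flank replicate 2 its adjusted p was 0.296.

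Genes of collagen maturation were among those that fell. P4HA2, an enzyme that hydroxylates collagen prolines, had 7.42, 7.39, 7.75 and 7.45 in the denervated limbs, against 8.98, 8.58, 8.70 and 8.92 in the flank wounds, a difference of -1.29 (adjusted p = 2.4e-05). CRTAP, a partner of collagen proline hydroxylation, fell by 0.63 (adjusted p = 2.42e-05), and SPARC, a collagen-binding glycoprotein, fell by 0.75 (adjusted p = 0.00929). In the interstitial collagen list 1 of 41 measured members rose and 5 fell, with a median of -0.10, and 2 fell without denervated replicate 4 or without flank replicate 1. Before injury 1 member of this list was called higher in limb than in flank and 5 lower, with a median of -0.21. Of all probe sets, 1.9% were higher and 2.46% lower before injury. The differences of changes in the list had a median of 0.02, with 22 positive (1 called) and 19 negative (2 called). Of all probe sets, 1.9% were called positive and 1.91% negative. A difference of changes was called for SPARC (-0.94), and not for P4HA2 or CRTAP. The fibrillar collagen chains COL1A1 and COL1A2 had differences of -0.86 and -0.67 that did not pass (adjusted p = 0.193 and 0.162), whereas limma on the 8 arrays alone gave 0.0314 and 0.0304. A second COL1A1 probe set was called at -1.01 (adjusted p = 0.0425).

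LAMB4, ESM1 and MAMDC2, which encode secreted proteins, fell. LAMB4, a laminin chain, had 6.03, 6.59, 6.17 and 6.24 in the denervated limbs and 8.05, 8.29, 8.16 and 7.69 in the flank wounds, a difference of -1.79 (adjusted p = 4.56e-07). ESM1, a secreted proteoglycan of vessels, had 4.16, 3.74, 3.55 and 3.80 in the denervated limbs, against 5.63, 6.21, 6.01 and 6.76 in the flank wounds (difference -2.34, adjusted p = 5.48e-06). MAMDC2, a secreted proteoglycan, had 5.88, 5.46, 4.60 and 5.01 in the denervated limbs, against 8.14, 7.06, 7.27 and 7.46 in the flank wounds (difference -2.25, adjusted p = 2.99e-08). None of these 3 was called on day 3, where the differences were -0.40, 0.23 and 0.32. EGFL6, a basement membrane protein, rose by 0.82 (adjusted p = 0.00133), and the basement membrane list had 2 of 28 measured members higher and 1 lower with a median of -0.02. The provisional matrix list had 1 of 26 higher and 1 lower with a median of 0.03. FN1, fibronectin, differed by 0.63 at day 7 (95% interval -0.0408 to 1.3, adjusted p = 0.316), while a second probe set passed at 0.67 (adjusted p = 0.0323), and on day 3 FN1 was 1.88 higher in the denervated limb (adjusted p = 0.000208). TNC, tenascin-C, differed by -0.04 (-0.442 to 0.372).

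Genes of ion and ammonia transport were among those that fell. The epithelial sodium channel takes up sodium through amphibian skin, and its beta subunit SCNN1B had 6.32, 7.64, 6.54 and 7.40 in the denervated limbs, against 8.96, 9.05, 9.36 and 9.22 in the flank wounds. No denervated value reached the flank range, and the difference was -2.17 ± 0.256 (SE, adjusted p = 2.2e-07). The gamma subunit SCNN1G fell by 0.95 (adjusted p = 0.000523). RHBG, an ammonia channel of epithelia, had 6.94, 7.38, 7.56 and 7.46 in the denervated limbs and 9.03, 8.53, 8.55 and 9.15 in the flank wounds (difference -1.48, adjusted p = 0.00507). KCNAB1, a potassium channel subunit, had 7.88, 8.50, 8.09 and 7.28 in the denervated limbs, against 10.26, 10.52, 10.70 and 10.04 in the flank wounds (difference -2.44, adjusted p = 3.75e-07). These were the 4 called members of 18 measured in the ion transport list, all lower (6 lower and 2 higher at an unadjusted p under 0.05), and its median was -0.04.

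Before injury SCNN1B differed between limb and flank by -0.17 (adjusted p = 0.794), and on day 3 denervated limb and flank wound differed by -0.37 (adjusted p = 0.483). The change from day 0 to day 7 differed between limb and flank by -2.0025 (adjusted p = 0.00061). The innervated limb at day 7 was also below the flank wound, by a difference of -1.89 (adjusted p = 3.32e-06). PPL, a cell envelope protein of outer epidermal layers, had 9.20, 9.75, 9.54 and 9.58 in the denervated limbs, against 10.76, 10.31, 11.17 and 10.56 in the flank wounds, a difference of -1.18 (adjusted p = 9.23e-06). TGM1, the enzyme that crosslinks this envelope, went the other way, with 9.83, 8.46, 9.10 and 9.36 in the denervated limbs and 7.24, 8.05, 7.69 and 8.32 in the flank wounds (difference 1.36, adjusted p = 0.0094). Its adjusted p was 0.0644 without denervated replicate 1 and 0.0569 without flank replicate 1. The epidermal differentiation list had 3 of 18 measured members higher and 2 lower, with a median of 0.03, and without flank replicate 1 none was called higher. CDH1, E-cadherin, rose by 0.42 (adjusted p = 0.000175) on its brightest probe set and on none of its 6 others, and the desmosome and junction list had 1 of 21 higher and 1 lower. The simple epithelial keratins KRT8 and KRT18, the only keratins measured of 28 in the list, differed by -0.065 (95% interval -0.221 to 0.091) and -0.06 (-0.354 to 0.239), although 1 of 3 other KRT8 probe sets was called at -2.26 (adjusted p = 0.0064).

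The muscle genes MYL1 and DES fell. MYL1, a light chain of fast skeletal muscle myosin, had 3.64, 3.88, 3.63 and 3.77 in the denervated limbs and 9.76, 7.82, 8.29 and 9.72 in the flank wounds, a difference of -5.17 ± 1.35 (SE, adjusted p = 0.0124). The denervated values lay near the bottom of the scale, and the flank values varied. The SE rests on the spread within all 11 groups, not on these 8 values alone. The mean level of the muscle markers ran from 4.135 to 12.28 in the denervated limb on day 3. Before injury MYL1 lay at 6.38 to 11.60 in uninjured limb, against 11.89 to 14.23 in uninjured flank. A second MYL1 probe set differed by -0.28 (adjusted p = 0.935). DES, the muscle intermediate filament desmin, had 9.20, 9.37, 9.16 and 8.10 in the denervated limbs, against 11.19, 11.35, 12.03 and 11.63 in the flank wounds (difference -2.59, adjusted p = 3.71e-06), while its other 2 probe sets were not called. CKM, muscle creatine kinase, had 5.15, 4.81, 4.49 and 5.30 in the denervated limbs and 8.93, 6.98, 7.40 and 8.66 in the flank wounds, and TNNC2, fast troponin C, differed similarly. These differences of -3.06 (95% interval -5.48 to -0.629, adjusted p = 0.131) and -3.00 (adjusted p = 0.149) did not pass, whereas limma on the 8 arrays alone gave adjusted p-values of 0.00559 and 0.00534. In the muscle list 3 of 38 measured members fell and none rose (9 and 0 at an unadjusted p under 0.05), with a median of -0.24, and 12 fell in the fit to the 8 arrays. The log2 summed level of the 6 measured muscle markers was 6.70 to 7.12 in the denervated limbs and 9.11 to 10.92 in the flank wounds. In uninjured tissue it was 7.90 to 12.70 in the limb and 13.06 to 15.89 in the flank, and how much muscle tissue the samples held was not tested. Before injury 5 members of the muscle list were called lower in limb than in flank and 0 higher, with a median of -0.69. DES was not among the 5. Of all probe sets, 2.46% were lower and 1.9% higher before injury. The differences of changes in the muscle list had a median of 0.34, with 24 positive (0 called) and 14 negative (1 called). Of all probe sets, 1.9% were called positive and 1.91% negative.

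Nerve genes were examined because the nerves had been cut. The nerve and Schwann cell list had 3 of 20 measured members higher and 1 lower, with a median of 0.07, and 1 higher without flank replicate 1. GLDN, gliomedin, a Schwann cell protein that clusters sodium channels at nodes, had 8.13, 5.91, 7.07 and 6.63 in the denervated limbs, against 3.42, 3.43, 3.37 and 3.36 in the flank wounds. It was 3.54 ± 0.69 higher (SE, adjusted p = 0.00067), and the innervated limb was also 2.81 above the flank wound at day 7 (adjusted p = 0.00606). UCHL1, a ubiquitin hydrolase of neurons, had 8.47, 9.07, 9.73 and 9.38 in the denervated limbs and 10.56, 10.12, 10.50 and 10.04 in the flank wounds, a difference of -1.14 (adjusted p = 0.00714), with an adjusted p of 0.0634 without denervated replicate 1. Before injury limb and flank differed in UCHL1 by -1.05 (adjusted p = 0.021). The Schwann cell and axon markers, 4 of 8 measured, averaged 4.71 to 4.82 in the denervated limbs and 4.36 to 4.53 in the flank wounds, low on the scale in both. The innervated limbs lay at 4.43 to 4.64, so the nerve-cut limbs had the higher values with no overlap, and 1 of the 4 was called higher in the denervated limb than in the flank wound.

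Most genes of cell division had lower values, and few passed. In the mitosis list 59 of 68 measured members were lower in the denervated limb, with a median of -0.45 against 0.0075 over all named genes, and 5 fell and none rose (20 and 0 at an unadjusted p under 0.05). The count of 5 was 2 without denervated replicate 2 or 4 or without flank replicate 1, 2 or 4, and 14 with limma on the 8 arrays alone. HMMR, a spindle protein, had 6.18, 6.42, 6.04 and 6.25 in the denervated limbs and 6.89, 7.07, 6.82 and 6.71 in the flank wounds (difference -0.65, adjusted p = 0.011). MKI67, the proliferation marker Ki-67, differed by -0.19 (95% interval -0.525 to 0.155), and PCNA, the sliding clamp of DNA replication, by -0.27 (-0.748 to 0.218). The same list had a median of -0.81 between denervated and innervated limb and 0.36 between innervated limb and flank wound, contrasts that share arrays with this one.

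DNA replication and growth control showed a few single changes. The replication list had 1 of 68 measured members higher and 3 lower, with a median of -0.06. GINS1, a part of the replication helicase, fell by 0.72 (adjusted p = 0.000221), and CDKN2C, a cell cycle inhibitor, fell by 0.84 (adjusted p = 0.000306). MYCN, a growth-promoting transcription factor of limb buds, had 8.23, 7.95, 7.64 and 7.77 in the denervated limbs, against 6.94, 7.67, 6.69 and 6.65 in the flank wounds. Its values overlapped in 1 array of each group, and the difference of 0.91 (adjusted p = 0.0117) had an adjusted p of 0.065 without denervated replicate 1, 0.0547 without flank replicate 3, 0.0534 without flank replicate 4 and 0.0528 with limma on the 8 arrays alone. Between denervated and innervated limb MYCN differed by -1.17 (adjusted p = 0.00628).

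Single metabolic genes showed large differences. SLC2A1, a widely expressed glucose transporter, had 9.75, 9.65, 10.54 and 10.32 in the denervated limbs, against 7.41, 6.46, 5.97 and 7.71 in the flank wounds. It was 3.18 ± 0.556 higher (SE, adjusted p = 0.000168), with a second probe set at 0.77 (adjusted p = 0.246), and on day 3 its difference was -0.70 (adjusted p = 0.552). SLC16A1, a lactate transporter, rose by 1.01 (adjusted p = 0.0102), with an adjusted p of 0.0583 without denervated replicate 1. BNIP3, a mitophagy receptor induced by low oxygen, fell by 0.76 (adjusted p = 0.000444). These were the 3 called members of the glycolysis and hypoxia list, 2 higher and 1 lower of 23 measured, with a median of -0.07. The cholesterol and lipid list had 3 of 34 higher and 1 lower with a median of 0.04. In it SCD, which desaturates fatty acids, rose by 0.88 (adjusted p = 0.0032), and ELOVL5, which elongates them, fell by 0.49 (adjusted p = 0.00795). In the oxidative phosphorylation list 2 of 54 measured members fell, with a median of -0.03.

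Protein folding, turnover and cell adhesion were mixed. The endoplasmic reticulum list had 3 of 44 measured members higher and 5 lower, with a median of 0.00125. The 5 lower became 2 without denervated replicate 2, 3 without denervated replicate 1, 3 or 4 or flank replicate 1, 2 or 4, and 2 with limma on the 8 arrays alone. Before injury 1 of the 44 was called higher in limb than in flank and 13 lower, with a median of -0.23 (2.46% of all probe sets were lower). The difference of changes was called positive for 11 and negative for 0 of the 44, with a median of 0.12 (1.9% of all probe sets were positive). DNAJC3, a chaperone partner of the endoplasmic reticulum, had 6.32, 5.95, 6.79 and 6.51 in the denervated limbs and 8.11, 8.19, 7.81 and 7.48 in the flank wounds (difference -1.51, adjusted p = 1.22e-05), and before injury limb and flank differed by -1.12 (adjusted p = 0.00138). Its other probe set differed by -0.19. KDELR3, a receptor that returns proteins to this compartment, fell by 0.62 (adjusted p = 0.00216). The ribosome and proteasome list had 1 of 73 higher and 2 lower, with a median of 0.05, and PSME1, an activator subunit of the proteasome, fell by 0.57 (adjusted p = 0.000188). In the integrin and actin list 5 of 58 measured members rose and 1 fell, with a median of 0.09, and 2 rose without denervated replicate 1 or without flank replicate 4. With the mean of all probe sets of each gene 1 rose and 2 fell. PDLIM7, a LIM protein of actin fibres, had 11, 10.33, 10.84 and 10.66 in the denervated limbs, against 9.55, 9.97, 9.29 and 9.79 in the flank wounds (difference 1.06, adjusted p = 9.99e-05). EZR, which ties actin to the cell membrane, rose by 0.52 (adjusted p = 0.00163).

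In the remaining lists few members were called. The inflammation list had 2 of 29 measured members higher and 2 lower. C7, a terminal complement component, had 8.53, 7.31, 7.97 and 7.11 in the denervated limbs, against 6.73, 6.27, 4.98 and 5.69 in the flank wounds, a difference of 1.81 (adjusted p = 0.0173), with an adjusted p of 0.0931 without denervated replicate 1 and 0.0925 without flank replicate 3. The other C7 probe set differed by 0.08 (adjusted p = 0.814). The cartilage and bone list had 2 of 20 higher and 1 lower, and MATN4, a matrix protein of cartilage and skin, was 0.91 higher (adjusted p = 0.00107) with an adjusted p of 0.11 in the fit to the 8 arrays. Of 14 pigment genes 1 fell, of 16 endothelial genes 1 rose, and of 10 erythrocyte and platelet genes limma called 0, also at an unadjusted p under 0.05. In the lists with 1 to 3 members called in a direction, leaving out 1 array changed that count by up to 3 genes.

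**Figure D5:**
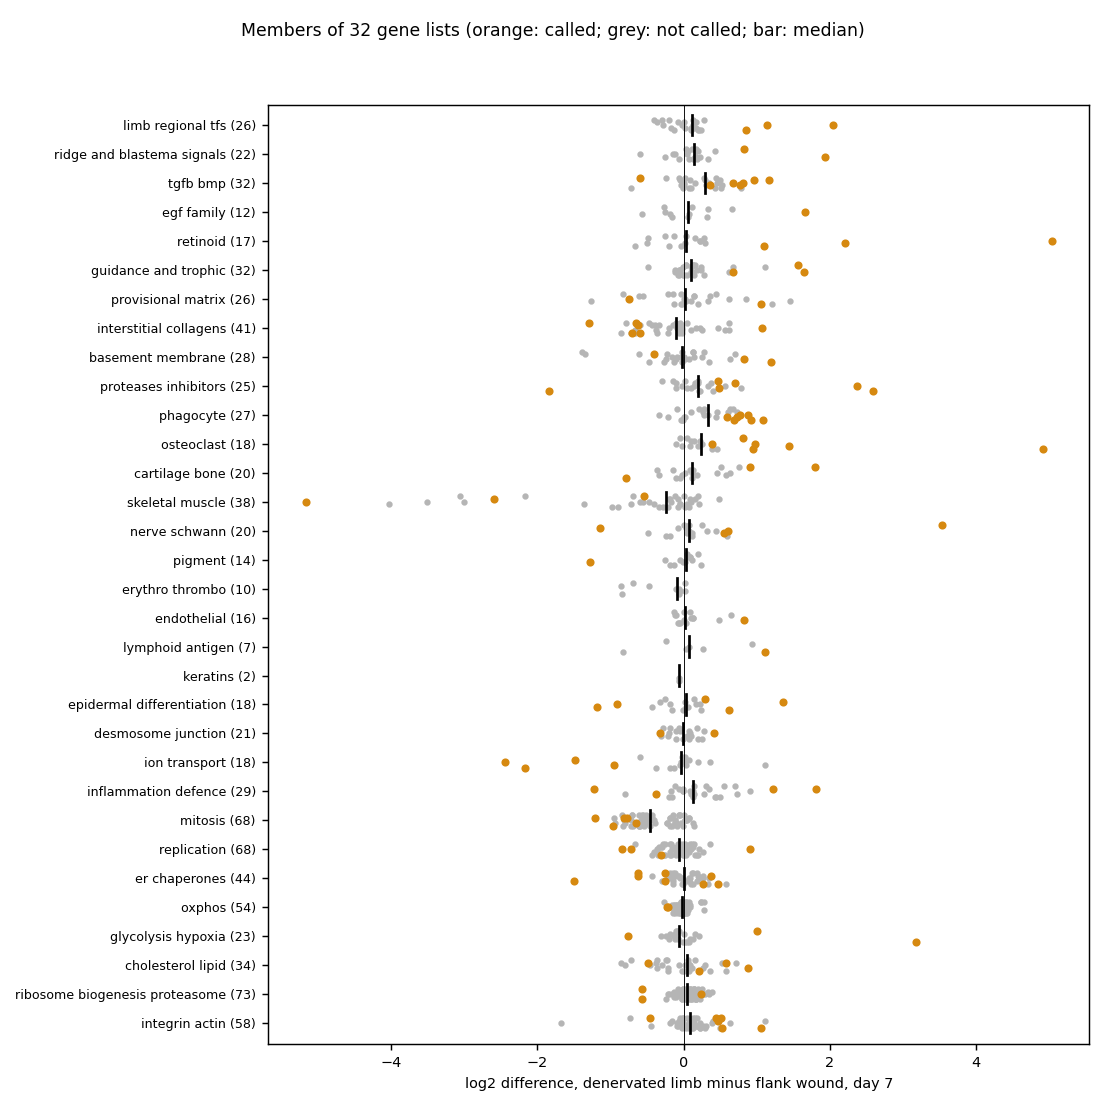
Log2 difference, denervated limb minus flank wound at day 7 (x axis), of every measured member of 32 gene lists (rows, number measured in parentheses); orange points are called, grey points are not, and bars are medians. Most list medians lie near 0, the mitosis median is -0.45, and the phagocyte and TGF-beta and BMP medians are 0.33 and 0.30.

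Some of the largest differences fell outside these lists. DYNC1I1, a motor protein chain of dynein, had 8.69, 7.70, 8.33 and 8.29 in the denervated limbs, against 5.79, 5.50, 5.81 and 5.38 in the flank wounds, a difference of 2.63 (adjusted p = 3.71e-11). It was 2.06 higher on day 3. On the lower side, NUPR1, a stress-induced nuclear protein, had 10.29, 11.14, 11.37 and 11.29 in the denervated limbs and 13.21, 12.39, 12.41 and 12.62 in the flank wounds (difference -1.64, adjusted p = 0.00572). SLC39A8, a zinc transporter, had 5.10, 5.38, 5.06 and 5.52 in the denervated limbs, against 7.04, 7.32, 8.26 and 6.54 in the flank wounds (difference -2.03, adjusted p = 0.00175). LITAF, a protein of late endosomes, had 7.41, 9.45, 8.27 and 8.99 in the denervated limbs and 10.87, 10.17, 11.02 and 10.42 in the flank wounds (difference -2.09, adjusted p = 8.87e-05), and its 2 other probe sets gave -1.19 (adjusted p = 0.00152) and 0.26 (adjusted p = 0.58). QRICH2 and DEPDC7 fell by 2.13 and 2.05, with no overlap of values. GPM6B, a membrane proteolipid, fell by 1.63 (adjusted p = 0.024), and its adjusted p was 0.0595 and 0.0724 without denervated replicates 3 and 4 and 0.0889 and 0.0713 without flank replicates 1 and 4. ATP6AP1, a proton pump accessory protein, fell by 1.59 (adjusted p = 0.000115) on one probe set and rose by 0.53 (adjusted p = 0.00181) on the other. Of the 1740 genes with several probe sets, 6 had calls in opposite directions. Some genes named above had other probe sets that were not called. These differed by 0.06 for TIMP1, 0.16 for PDLIM7, -0.09 for CSF1R, 0.23 for GRN and 0.17 for SALL4. The rest differed by -0.21 for SLC16A1, -0.06 for BNIP3, -0.22 for GPM6B, -0.045 for HMMR, 0.56 for TGFB2, and -0.33 and -0.85 for PPL. For ETV4 (1.135), P4HA2 (-1.11), UCHL1 (-1.35), DEPDC7 (-1.265) and TBX5 (0.39) the other probe set was called in the same direction.

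Probe sets with no gene symbol made up 677 of the 1442 called, close to their share of all probe sets, 9084 of 20035. The largest rise among them was axo22108-r_at, with 13.42, 10.34, 11.66 and 13.08 in the denervated limbs and 6.57, 7.08, 6.72 and 7.32 in the flank wounds (difference 5.20, adjusted p = 7.41e-09). The largest fall was axo24990-f_at, with 4.52, 4.32, 3.70 and 4.18 in the denervated limbs, against 9.75, 9.10, 8.22 and 9.08 in the flank wounds (difference -4.86, adjusted p = 1.88e-11). These differences are close in size to those of ALDH1A3 and MYL1. Neither probe set differed detectably between uninjured limb and flank (differences -0.65 and -0.71, adjusted p = 0.566 and 0.316).

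The contrast was also looked up on days and tissues that share no array with it. On day 3 denervated limb and flank wound differed in 1268 probe sets (6.33%), on day 1 in 467 (2.33%), and before injury limb and flank differed in 872 (4.35%). Of the 1442 probe sets called at day 7, 382 were called in the same direction on day 3, which is 26.5% of the day 7 and 30.1% of the day 3 calls, and 18 in the opposite direction. For day 1 there were 132 in the same direction (9.15% of the day 7 and 28.3% of the day 1 calls) and 15 opposite. For uninjured tissue there were 124 (8.6% and 14.2%) and 22 opposite. With 1 array left out the counts reached as low as 437 higher and 359 lower on day 3, against 720 (3.59%) and 548 (2.74%) in full (without denervated replicate 1 and flank replicate 1). On day 1 they reached 111 and 146, against 200 (0.998%) and 267 (1.33%) in full (without denervated replicates 1 and 3), and before injury 231 and 316, against 380 (1.9%) and 492 (2.46%) in full (without uninjured limb replicate 2 and uninjured flank replicate 4). Among the day 7 calls, 79.6% had the same sign on day 3, 69% on day 1 and 66.1% before injury, against 54.8%, 52.4% and 56.4% of all probe sets.

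The change from uninjured tissue to day 7 was compared between the denervated limb and the flank, with the uninjured innervated limb as the limb's starting point. It differed in 762 of 20035 probe sets (3.8%), with a positive difference (the limb's signed change minus the flank's) in 380 (1.9%) and a negative one in 382 (1.91%). Without denervated replicate 1 at day 7 these counts were 233 and 231. The difference of changes contains the day 7 arrays of the main contrast and is not independent of it. CTSK had a difference of changes of 4.57 and ALDH1A3 of 4.22 (adjusted p = 0.00188), while MMP2 had 2.63 and SLIT2 2.60. For these 4 genes no difference between uninjured limb and flank was called. The difference of changes of SLIT2 exceeded its day 7 difference, because its mean in uninjured limb lay below that in uninjured flank. GLDN had 3.62 (adjusted p = 0.0269), with an adjusted p of 0.0862 without denervated replicate 1 at day 7, 0.0628 without uninjured flank replicate 3 and 0.0514 without uninjured limb replicate 2.

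For other genes with large differences of changes, uninjured limb and flank differed. CAPSL, a calcium-binding protein, lay at 4.40 to 4.76 in uninjured limb, against 6.36 to 9.05 in uninjured flank (difference -3.61, adjusted p = 5.73e-11), and at day 7 the denervated limb and flank wound differed by -0.18 (adjusted p = 0.841). Its difference of changes was 3.43, and that of its other probe set was -0.0275 (adjusted p = 0.979). PTGES, the enzyme that makes prostaglandin E2, lay at 5.84 to 7.42 in uninjured limb, against 8.32 to 11.20 in uninjured flank, with a difference of changes of 3.79. EPDR1, a secreted protein, had a difference of changes of 3.45 and ABI3BP, a matrix protein, of 3.90, and uninjured limb differed from flank by -2.39 and -3.28. With limma on the uninjured arrays alone, these day 0 differences had adjusted p-values of 0.0709 and 0.0739. PTX3, a secreted pattern recognition protein, reached 4.55 (adjusted p = 0.0254) and was not called, with adjusted p-values of 0.0505 to 0.0627, without denervated replicate 1 or 2, flank replicate 3, uninjured flank replicate 3 or 4, or uninjured limb replicate 1 or 2. Uninjured limb and flank differed in PTX3 by -3.65 (adjusted p = 0.00841, and 0.0541 with limma on the uninjured arrays alone).

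Among genes with a negative difference of changes, COL11A1, a fibrillar collagen chain, had a difference of changes of -2.92, and uninjured limb exceeded uninjured flank by 2.33 (adjusted p = 1.49e-11). COL28A1, a beaded collagen, had -2.29, with uninjured limb 1.62 above flank (adjusted p = 0.000222, and 0.153 with limma on the uninjured arrays alone). DES had -3.59, ESM1 -2.74, MAMDC2 -2.28, LAMB4 -2.24 and LITAF -2.24, and for DES, ESM1, MAMDC2, LAMB4 and LITAF no day 0 difference was called. The differences of changes of the other probe sets of DES (-0.255 and 0.565) and LITAF (-1.15 and 0.62) were not called. SLC39A8 had -2.14 (adjusted p = 0.0385) and was not called without denervated replicate 1 or 3, flank replicate 2 or 3, uninjured flank replicate 3 or 4, or uninjured limb replicate 2 or 3, with adjusted p-values of 0.055 to 0.115. In a fit to the 4 groups alone its adjusted p was 0.0563.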

How the data were processed

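Expression was measured on 44 Affymetrix axolotl arrays, 4 biological replicates in each of 11 groups, grouped by their labels. The deposited log2 values lay between 2.41 and 15.04 with array medians of 5.61 to 5.73; RMA and limma are listed in the submitters' processing notes with no role given, so background correction and normalization were taken as the authors left them. No values were filtered or rescaled. Of 20080 probe sets, 45 controls were left out, and 10951 of the other 20035 have 1 gene symbol in GEO's platform annotation, covering 8639 genes. Symbols are those of the array design. No 2 arrays held identical values.

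Tests used limma 3.58.1 (R 4.3.3), with a mean per group over all 44 arrays (33 residual degrees of freedom), empirical Bayes moderation and two-sided tests. The Benjamini-Hochberg adjustment ran over 20035 probe sets within each of 7 contrasts, and adjusted p under 0.05 was called. The median SE was 0.123 (0.174 for differences of changes), which the number of arrays limits. Intervals are 95% and unadjusted.

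Genes named are the 15 largest called differences each way whose values did not overlap, the 8 largest differences of changes each way, and up to 5 members of each of 32 gene lists with the smallest adjusted p, plus members that did not pass. The members and lists were chosen with earlier results of these data known. Alternatives were a fit to the contrast's groups, quantile or median normalization, no dim probe sets (the lowest 25%), array weights, another moderation, an adjusted p under 0.01, the mean of a gene's probe sets, a replicate block and each array left out. Replicate numbers were not taken to pair the samples. The deviations of same-numbered denervated limb and flank wound arrays correlated at -0.149 to 0.101 at day 7. On day 1 they correlated at 0.0933 to 0.195 and every array matched its own number best, so a pairing on that day is not excluded. The labels give no batch, scan date or sex, so none was examined. The procedure was tested on simulated data.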

Additional observations from a re-analysis of the deposited data

Results flagged for a closer look

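Single arrays stood far from the other 3 of their group, by Dixon's 95% criterion for 4 values, in 11 of 194 groups of values examined at day 7 (97 genes in denervated limb and flank wound); chance alone flags about 1 in 20. In the denervated limb these were DES at 8.10 in replicate 4 (others 9.16 to 9.37), SALL4 at 10.92 in replicate 1 (others 10.51 to 10.56), P4HA2 at 7.75 in replicate 3 (others 7.39 to 7.45) and GRN at 12.43 in replicate 4 (others 12.63 to 12.66). In the flank wound they were EMX2 at 4.48 in replicate 2 (others 4.12 to 4.17), TGFB2 at 2.96 in replicate 2 (others 3.07 to 3.09), SLIT2 at 7.66 in replicate 3 (others 8.43 to 8.53), SCNN1G at 5.22 in replicate 3 (others 4.47 to 4.56), KAZALD1 at 13.05 in replicate 1 (others 12.14 to 12.20), PSME1 at 11.67 in replicate 3 (others 11.37 to 11.41) and BNIP3 at 10.5 in replicate 1 (others 10.41 to 10.42). For all but KAZALD1, whose difference was not called, the outlying value left the 2 groups without overlap.

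The change from uninjured tissue to day 7 differed between the denervated limb and the flank, by limma's test of the difference of changes, in 49 of the 97 genes examined. Of all probe sets, 3.8% were called. Many of these genes were chosen for large differences in these data, and the test contains the same day 7 arrays. The count is therefore a description and not a test. Values are the limb's change minus the flank's change on the log2 scale, and the limb's change starts from the uninjured innervated limb. A positive difference was found for CTSK 4.567, PTX3 4.553, ALDH1A3 4.215, ABI3BP 3.9, PTGES 3.792, GLDN 3.615, EPDR1 3.453, CAPSL 3.433, SLC2A1 2.922, C7 2.917, TIMP1 2.708, MMP2 2.63, SLIT2 2.603, DYNC1I1 2.317, CPM 2.252, FOXC1 2.045, AREG 2.022, FZD8 1.782, SCD 1.5, SALL4 1.395, ACP5 1.21, ETV4 1.175, MATN4 1.14, CD247 1.083, PDLIM7 1.048, BMPR2 0.9825 (another of its probe sets was called at -0.6525) and TCIRG1 0.7275. A negative difference was found for DES -3.592, COL11A1 -2.922, ESM1 -2.735, COL28A1 -2.29, MAMDC2 -2.28, LAMB4 -2.243, LITAF -2.235, SLC39A8 -2.135, KCNAB1 -2.058, SCNN1B -2.002, RHBG -1.702, QRICH2 -1.643, DEPDC7 -1.637, PPL -1.48, ATP6AP1 -1.393, ALDH1A1 -1.065, SERPINF1 -1.048, SPARC -0.94, CDKN2C -0.9375, SCNN1G -0.9075, GINS1 -0.7075 and PSME1 -0.665. Other probe sets were not called for TIMP1 (0.04), C7 (-0.1825), SLC2A1 (0.5675), MMP2 (1.4475), SALL4 (0.0525), PDLIM7 (1.185) and CAPSL (-0.0275). Nor were those of DES, LITAF, DEPDC7 (-0.85), ATP6AP1 (0.525) and ALDH1A1 (-1.0075). Of the other PPL probe sets, one was called (-0.5875) and one was not (-1.51). For CTSK, ETV4 and COL11A1 the other probe set was called in the same direction.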

How the results depend on the processing

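Of the 90 genes given for denervated limb against flank wound at day 7, the replicate block and moderation with trend and robust changed no direction and no call, and neither changed a call among the genes given for other contrasts. With the block, 690 probe sets were higher and 768 lower at day 7, and 222 and 293 on day 1. The deviations of same-numbered arrays correlated at -0.149 to 0.101 at day 7 and -0.0601 to 0.179 on day 3, against 0.0933 to 0.195 on day 1, where every array matched its own number best, and 0.0572 to 0.315 before injury. Fitting only the groups of the contrast gave 120 higher and 59 lower on day 1, 53 and 83 before injury, and 223 and 198 for the difference of changes. Array weights gave 1327 higher for innervated limb against flank wound, and 415 higher and 361 lower for denervated against innervated limb. At an adjusted p under 0.01 there were 350 higher and 401 lower at day 7, 374 and 234 on day 3, 73 and 96 on day 1, 149 and 242 before injury, 170 and 144 for the difference of changes, 435 and 580 for innervated limb against flank wound, and 50 and 32 for denervated against innervated limb. The cause of these shifts was not tested, beyond the smaller number of samples or the stricter threshold that defines the alternative.

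With 1 array left out, the counts were 429 to 643 higher and 503 to 678 lower at day 7, 437 to 726 and 359 to 483 on day 3, 111 to 277 and 146 to 296 on day 1, 231 to 410 and 316 to 522 before injury, 233 to 432 and 231 to 399 for the difference of changes, 569 to 777 and 753 to 990 for innervated limb against flank wound, and 44 to 161 and 28 to 166 for denervated against innervated limb. The uncalled difference of TNC was 0.001761 after quantile normalization and -0.075 to 0.001667 with 1 array left out, and that of KRT18 was -0.1317 to 0.02167 with 1 array left out; the cause was not tested. Detection calls were not used here, so levels near the lowest values are not known to be above background.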
